A study of Mus musculus with 18 samples.

Results

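The expression of 10 genes that mark the switch between the epithelial and the mesenchymal cell state was followed over all 18 libraries of a mouse gastruloid time course, by day and by doxycycline (Dox). The genes were taken by name out of 55401 gene IDs. Cdh1, Epcam, Cldn6, Cldn7 and Esrp1 form the epithelial side, and Cdh2, Vim, Snai1, Zeb1 and Zeb2 the mesenchymal side. All 10 passed the filter on low counts, although the levels of several were very low on some days, and 17795 genes were tested in all.

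An epithelium is a sheet of polarised cells held together by adherens junctions, tight junctions and desmosomes. In an epithelial-mesenchymal transition, cells take these junctions apart, exchange E-cadherin (Cdh1) for N-cadherin (Cdh2), build a vimentin (Vim) cytoskeleton and become motile. Zinc-finger repressors of the Snail and Zeb families bind E-box sequences in the promoters of epithelial genes, among them Cdh1. In the embryo, epiblast cells pass through such a transition at the primitive streak. Gastruloids are aggregates of embryonic stem cells that pass through parts of gastrulation and axis formation in culture.

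All libraries came from 1 line, RHKI, an E14Tg2a mouse embryonic stem cell derivative whose labelled genotype is an HA-Rnaseh1 knock-in. Rnaseh1 encodes an enzyme that digests the RNA strand of RNA:DNA hybrids. Cells were grown in NDiff 227 medium with LIF, serum, CHIR-99021 and PD0325901, and poly(A) RNA was sequenced 0 h, 72 h and 120 h into gastruloid differentiation, called day 0, day 3 and day 5. Each day had 3 libraries without Dox, called control here, and 3 with Dox, given at 500 ng/ml for 48 h before the cells entered differentiation. The labels do not say whether Dox was kept on afterwards. Every group carried the knock-in, so no library shows the action of Dox on cells without it. Nothing in the labels says that the replicates are separate cultures, so p-values measure only the spread between these samples, which may be technical.

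Library totals ran from 25748897 to 38128366 counts. Rnaseh1 was 5.39-fold higher with Dox at day 0, 2.90-fold at day 3 and 2.90-fold at day 5 (edgeR adjusted p of 4.1e-13, 9.9e-10 and 1.3e-09). The 7 markers of mouse embryonic stem cells summed to between 5209 and 5232 CPM (counts scaled to library size with TMM factors) in the control libraries of day 0 and to between 274.7 and 282.2 CPM at day 5, so the labelled cell type was matched at day 0. Markers of fibroblast feeders summed to at most 10.2 CPM in any library. In the library of day 0 with Dox, replicate 2, the rRNA gene CT010467.1 took 4.76% of the counts, against 0.144 to 0.483% elsewhere.

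Promoter windows from RefSeq (build GRCm38.p6) reach from 250 bases before to 50 bases after each annotated start, and 6 of the 10 genes had one: Epcam, Cldn6, Cldn7, Vim, Snai1 and Zeb2. They were searched on both strands for the E-box CACCTG and its reverse complement CAGGTG, the letters that Snail and Zeb proteins are known to bind. The windows below are shown because 3 of these genes are epithelial genes that moved together in the time course and Snai1 is a repressor of that class. Each reads 5′ to 3′ along the gene, with the matches in capitals.
Epcam, chr17:87635729-87636028, plus strand: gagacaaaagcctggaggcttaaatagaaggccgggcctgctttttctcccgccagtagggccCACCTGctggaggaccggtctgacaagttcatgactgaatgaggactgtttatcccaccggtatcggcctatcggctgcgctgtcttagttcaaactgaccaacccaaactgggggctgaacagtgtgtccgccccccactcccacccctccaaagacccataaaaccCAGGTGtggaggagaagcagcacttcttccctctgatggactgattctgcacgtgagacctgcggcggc
Cldn6, chr17:23679115-23679414, plus strand: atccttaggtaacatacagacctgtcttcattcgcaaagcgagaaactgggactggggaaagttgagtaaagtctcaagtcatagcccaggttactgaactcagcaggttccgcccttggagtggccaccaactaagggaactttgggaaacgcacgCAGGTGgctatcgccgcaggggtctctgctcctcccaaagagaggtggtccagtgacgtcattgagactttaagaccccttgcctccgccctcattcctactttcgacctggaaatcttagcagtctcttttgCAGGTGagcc
Cldn7, first start, chr11:69964529-69964828, plus strand: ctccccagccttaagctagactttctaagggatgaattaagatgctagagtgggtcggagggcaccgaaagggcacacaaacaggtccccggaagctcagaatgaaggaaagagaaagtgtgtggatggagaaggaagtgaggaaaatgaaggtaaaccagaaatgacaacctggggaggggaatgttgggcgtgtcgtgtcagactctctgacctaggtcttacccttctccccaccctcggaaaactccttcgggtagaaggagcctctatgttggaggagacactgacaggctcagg
Cldn7, second start, chr11:69965171-69965470, plus strand: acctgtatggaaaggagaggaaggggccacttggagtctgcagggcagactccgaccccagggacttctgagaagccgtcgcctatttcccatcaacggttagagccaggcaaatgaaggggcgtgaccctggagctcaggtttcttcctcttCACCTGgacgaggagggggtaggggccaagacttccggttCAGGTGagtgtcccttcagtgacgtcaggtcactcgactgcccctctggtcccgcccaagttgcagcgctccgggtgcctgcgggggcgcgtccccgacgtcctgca
Snai1, chr2:167537945-167538244, plus strand: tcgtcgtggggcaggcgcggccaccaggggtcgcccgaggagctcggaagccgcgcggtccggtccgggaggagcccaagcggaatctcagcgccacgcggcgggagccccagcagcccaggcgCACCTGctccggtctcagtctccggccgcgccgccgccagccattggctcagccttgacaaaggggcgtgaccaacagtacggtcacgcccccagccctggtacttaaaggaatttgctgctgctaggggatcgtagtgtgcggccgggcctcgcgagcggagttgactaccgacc

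Epcam held 2 matches, at -187 and -19 from the start, and Cldn6 held 2, at -93 and 40. At the second Cldn7 start there were 2, at -97 and -57, and at the first there were 0. Snai1 itself held 1, at -126. The windows of Vim and Zeb2 held 0. Of 32851 windows of this length in the table, 20.2% held at least 1 match and 2.88% at least 2. These are matches of letters and not measured sites.

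The first question was how the 10 genes moved without Dox, from stem cells (day 0) to day 3 and day 5. At day 3 all 5 epithelial genes were higher than at day 0, and at day 5 all 5 had fallen far below their day 3 level. The mesenchymal genes did not move as a block: Cdh2 and Zeb2 rose at both steps, Vim and Zeb1 fell and then rose, and Snai1 rose at day 3 and fell again. All 10 passed the test in the control libraries at day 3 against day 0 (8 higher and 2 lower) and all 10 at day 5 against day 3 (4 higher and 6 lower). Of all genes tested, 73.5% passed in the first comparison (37.2% higher and 36.3% lower) and 64.8% in the second (31.7% higher and 33.1% lower), so calls alone do not set these genes apart. From day 0 to day 5, 8 of the 10 passed (4 higher and 4 lower), against 79.2% of all genes (38.9% higher and 40.3% lower).

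**Figure D1:**
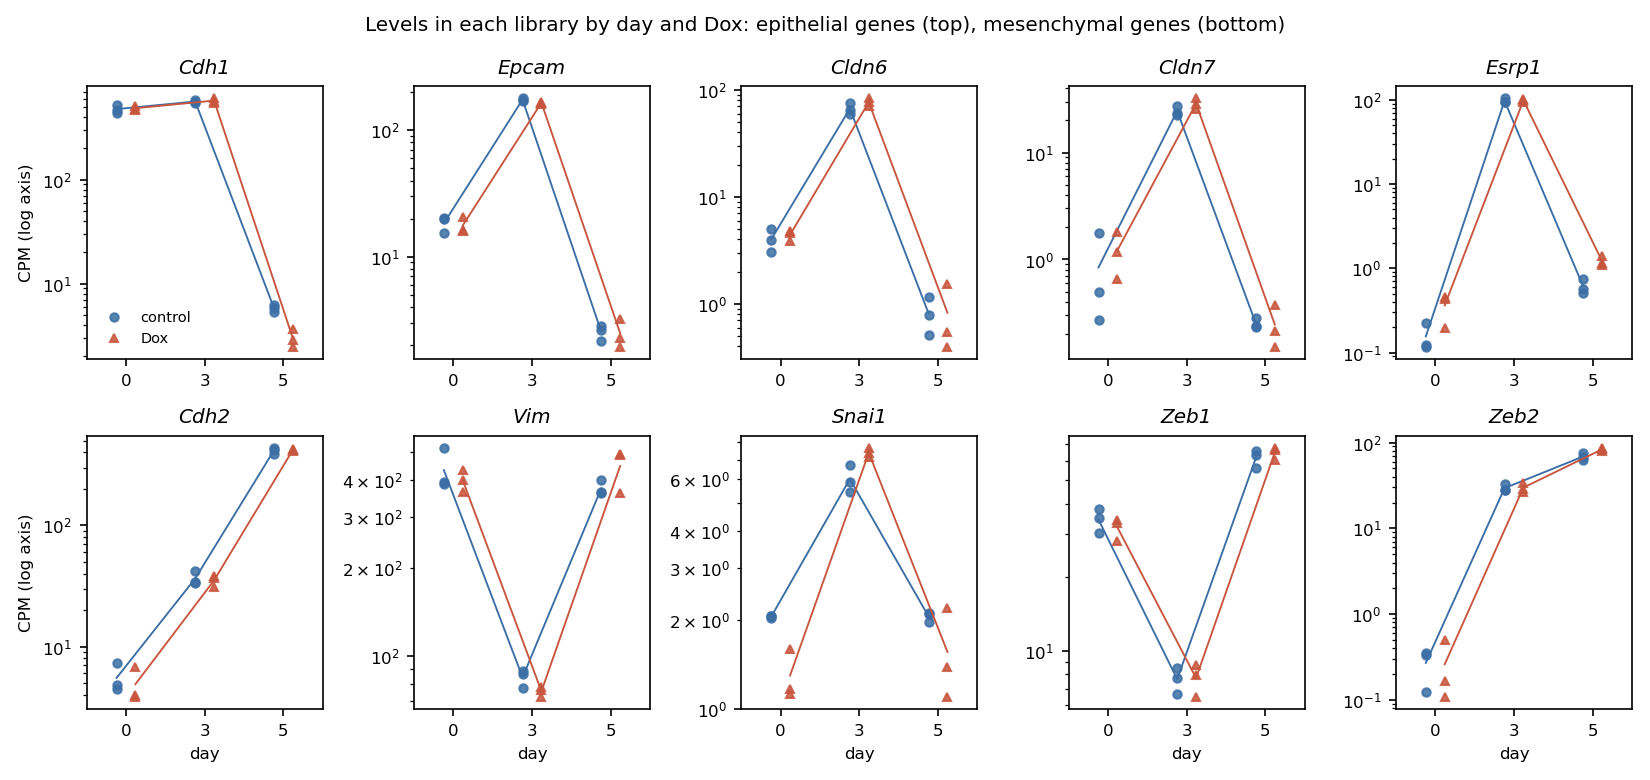
Level of each gene in CPM (log axis) against day, with 1 point per library (circles control, triangles Dox) and a line through the group means. The 5 epithelial genes in the top row peak at day 3 and lie far lower at day 5. Cdh2 and Zeb2 climb from day to day, while Vim and Zeb1 dip at day 3.

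Cdh1 (ENSMUSG00000000303.12, GRCm38 chromosome 8, 106603351 to 106670246) encodes E-cadherin, the adhesion molecule of the adherens junction. Its level in the control libraries was 470, 442 and 518 CPM at day 0, 543, 587 and 564 CPM at day 3, and 5.39, 6.30 and 5.84 CPM at day 5. It was thus already high in the stem cells, a little higher at day 3, and low in every library of day 5, with no overlap between days. The rise to day 3 was a log2 fold change of 0.24 (SE 0.07, edgeR adjusted p = 0.0061). The fall to day 5 was 96.5-fold (log2 fold change -6.59, SE 0.10, edgeR adjusted p = 4.1e-19), which left 1.03% of the mean of day 3.

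Epcam (ENSMUSG00000045394.9, chromosome 17, 87635979 to 87651129) encodes an epithelial cell adhesion molecule at the lateral membrane. Control libraries held 15.3, 20.1 and 19.7 CPM at day 0, 171, 179 and 175 CPM at day 3, and 2.17, 2.82 and 2.65 CPM at day 5. Day 3 stood above both other days in every library. The gene rose 9.49-fold and then fell 68.2-fold (edgeR adjusted p of 8.8e-15 and 5.2e-17).

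Cldn6 (ENSMUSG00000023906.3, chromosome 17, 23679249 to 23682446) and Cldn7 (ENSMUSG00000018569.12, chromosome 11, 69964779 to 69967885) encode claudins, the strand-forming proteins of tight junctions. Cldn6 was at 3.97, 4.98 and 3.03 CPM at day 0, 59.9, 75.1 and 65.3 CPM at day 3, and 0.779, 0.507 and 1.16 CPM at day 5. Cldn7 was at 0.273, 0.498 and 1.76 CPM at day 0, 22.6, 27.4 and 23.5 CPM at day 3, and 0.237, 0.285 and 0.231 CPM at day 5. Both peaked at day 3 with no overlap with the other days. Cldn6 rose 16.6-fold and fell 79.6-fold, and Cldn7 rose 29.3-fold and fell 96.5-fold (largest edgeR adjusted p of the 4 steps 2.1e-10, Cldn7 to day 3). Cldn7 at day 5 rested on 7, 9 and 9 counts per control library, so its low level is known only roughly.

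Esrp1 (ENSMUSG00000040728.15, chromosome 4, 11331933 to 11386783, minus strand) encodes an RNA-binding protein that sets the epithelial pattern of alternative splicing. It was nearly absent at day 0, with 0.117, 0.125 and 0.225 CPM (3, 4 and 6 counts). Day 3 libraries held 94.2, 104 and 94.4 CPM, and those of day 5 held 0.745, 0.570 and 0.514 CPM. Its rise to day 3 was the largest of the 10 genes (log2 fold change 9.27, SE 0.16, edgeR adjusted p = 5.1e-19), and so was its fall to day 5 (log2 fold change -7.33, SE 0.13, edgeR adjusted p = 9.3e-19). Unlike the other 4 epithelial genes, whose log2 fold changes from day 0 to day 5 ran from -6.35 to -1.72, it ended above its day 0 level (log2 fold change 1.94, SE 0.33, edgeR adjusted p = 2.8e-05). The related gene Esrp2, in the surface list below, had a day 0 mean of at least 5 CPM and fell in control at both steps. From day 0 to day 5 its log2 fold change was -5.48 (edgeR adjusted p = 4.0e-14). Without control replicate 3 of day 0, which held 1.76 CPM of Cldn7, the Cldn7 difference between day 5 and day 0 no longer passed (log2 fold change -0.66, edgeR adjusted p = 0.25).

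Among the mesenchymal genes, Cdh2 (ENSMUSG00000024304.14, chromosome 18, 16588877 to 16809246, minus strand) encodes N-cadherin, which is carried by neural and mesodermal cells. It was at 7.25, 4.48 and 4.79 CPM at day 0, 41.8, 34.0 and 33.4 CPM at day 3, and 432, 391 and 420 CPM at day 5. Each day stood above the day before in every library. Cdh2 rose 6.66-fold to day 3 and a further 11.4-fold to day 5 (edgeR adjusted p of 2.4e-11 and 1.1e-13). Its first rise came at day 3, when Cdh1 was still at its highest level.

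Vim (ENSMUSG00000026728.9, chromosome 2, 13573927 to 13582826) encodes the intermediate filament protein vimentin. Control libraries held 396, 515 and 390 CPM at day 0, 77.8, 86.9 and 88.7 CPM at day 3, and 400, 362 and 364 CPM at day 5. The stem cells and the day 5 gastruloids overlapped, and only day 3 was low. Vim fell 5.14-fold and rose 4.44-fold (edgeR adjusted p of 1.3e-12 and 8.3e-12). Day 5 against day 0 did not pass (log2 fold change -0.21, 95% interval -0.44 to 0.02, edgeR adjusted p = 0.091), but it did when control replicate 3 of day 0 or Dox replicate 1 of day 5 was left out (edgeR adjusted p of 0.040 to 0.043), and with no filter on low counts (-0.18, edgeR adjusted p = 0.020).

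The 3 repressors followed 3 different courses. Snai1 (ENSMUSG00000042821.7, chromosome 2, 167538195 to 167542814), the Snail repressor that acts early in gastrulation, was at 2.06, 2.02 and 2.06 CPM at day 0, 5.44, 6.73 and 5.86 CPM at day 3, and 1.96, 2.09 and 2.11 CPM at day 5. It was low throughout, and day 3 alone stood out, 2.93-fold above day 0 and 2.92-fold above day 5 (edgeR adjusted p of 4.0e-07 and 4.7e-07). Its peak fell on the day on which the epithelial genes were also highest.

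Zeb1 (ENSMUSG00000024238.15, chromosome 18, 5591860 to 5775467) was at 35.1, 30.3 and 38.0 CPM at day 0, 8.53, 6.67 and 7.75 CPM at day 3, and 65.8, 55.9 and 63.2 CPM at day 5. It fell 4.51-fold and then rose 8.08-fold (edgeR adjusted p of 4.9e-12 and 6.9e-14), which is the dip that Vim also showed. Zeb2 (ENSMUSG00000026872.18, chromosome 2, 44983632 to 45117395, minus strand) went from 0.351, 0.125 and 0.337 CPM at day 0 to 32.5, 27.9 and 27.9 CPM at day 3 and 75.5, 62.4 and 68.4 CPM at day 5. It rose at both steps, by a log2 fold change of 6.79 and then of 1.23 (edgeR adjusted p of 3.0e-15 and 2.2e-08). The antisense gene Zeb2os overlaps Zeb2 and reached at most 5.91 CPM. The strand setting of the counting is not given in the sources used here, and without strand the reads of these genes cannot be told apart.

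To order the genes within a day, the deposited TPM values, which correct for transcript length, were used. In control libraries of day 0, Vim led at 417 ± 50.4 TPM (SD, n = 3), followed by Cdh1 at 144 ± 18.2, Epcam at 15.1 ± 1.99, Zeb1 at 8.18 ± 1.59 and Cldn6 at 3.74 ± 0.74 TPM. Cldn7, Snai1 and Cdh2 came next at 1.77 to 1.79 TPM and overlapped, and Zeb2 and Esrp1 were at 0.113 and 0.06 TPM. At day 3 Cdh1 (188 ± 3.55 TPM) and Epcam (161 ± 1.77 TPM) led, and Vim (85.3 ± 5.75 TPM), next in order, overlapped Cldn6 (72.1 ± 7.32 TPM). Esrp1 (41.2 ± 2.24 TPM) overlapped Cldn7 (36.9 ± 5.41 TPM), and Cdh2, Zeb2, Snai1 and Zeb1 closed the order at 13.0, 9.60, 5.77 and 2.05 TPM. At day 5 the first 4 were from the mesenchymal list: Vim at 431 ± 28.3, Cdh2 at 161 ± 13.9, and Zeb2 at 21.2 ± 3.59 overlapping Zeb1 at 17.1 ± 2.47 TPM. Epcam, Cdh1 and Snai1 lay between 2.12 and 2.52 TPM there, with Cdh1 and Snai1 overlapping, and Cldn6, Cldn7 and Esrp1 were below 1 TPM. In the same control libraries neural tube markers summed to 1650 to 1683 CPM, and somite and presomitic mesoderm markers to 129 to 151 CPM. Which cells carried Vim, Cdh2, Zeb1 and Zeb2 was not tested, so their lead does not by itself mean mesenchymal cells.

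The ratio of the cadherins within a library does not depend on library scaling. In control libraries the log2 ratio of Cdh1 to Cdh2 TPM was 6.00, 6.44 and 6.66 at day 0, 3.62, 3.98 and 3.98 at day 3, and -6.34, -6.10 and -6.26 at day 5. E-cadherin mRNA therefore exceeded N-cadherin mRNA 64.2- to 101-fold in the stem cells and 12.3- to 15.8-fold at day 3. At day 5 N-cadherin mRNA exceeded E-cadherin mRNA 68.5- to 80.9-fold. In bulk RNA, fewer cells that carry Cdh1 and less Cdh1 RNA in each cell cannot be told apart.

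The second question was whether Dox changed these genes on each day. At day 5, 2 of the 10 passed the test: Cdh1 was 1.95-fold lower and Esrp1 2.02-fold higher with Dox. Of all genes tested, 4.74% passed at day 5, 2.39% higher and 2.34% lower. At day 0 and at day 3, 0 of 10 passed by edgeR, with 2 and 0 at an unadjusted p under 0.05. Of all genes tested 1.04% passed at day 0 (0.292% higher and 0.747% lower) and 0.0169% at day 3, all of them higher. An unadjusted p under 0.05 was reached by 12.3% of all genes at day 0, 2.43% at day 3 and 16.4% at day 5, and the counts at that level below are to be read against these shares. DESeq2 and limma-voom also called 0 of 10 on both days.

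**Figure D2:**
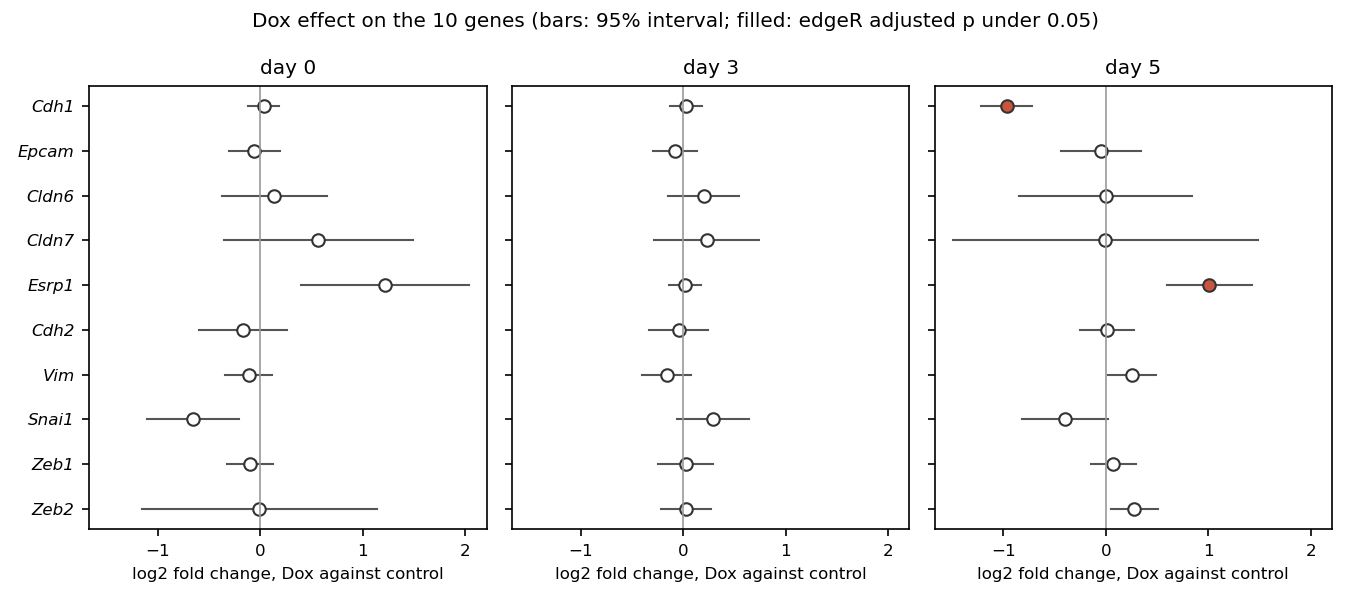
Log2 fold change with Dox against control for each gene at day 0, 3 and 5, with 95% intervals, 3 libraries against 3. Filled points passed an edgeR adjusted p under 0.05: Cdh1 (-0.97) and Esrp1 (1.01) at day 5. At day 3 every interval includes 0.

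Cdh1 at day 5 stood at 3.65, 2.47 and 2.86 CPM with Dox (120, 81 and 99 counts) against 5.39, 6.30 and 5.84 CPM in control (159, 199 and 227 counts). All 3 Dox libraries were below all 3 control libraries. The log2 fold change was -0.97 (SE 0.12, 95% interval -1.22 to -0.72, edgeR adjusted p = 7.3e-05). With Dox, 0.519% of the Cdh1 mean of day 3 was left at day 5, against 1.03% in control, so the difference concerns the last percent of the earlier level. At day 0 Cdh1 was at 474, 471 and 516 CPM with Dox (log2 fold change 0.03, 95% interval -0.12 to 0.18). At day 3 it was at 548, 605 and 576 CPM (log2 fold change 0.03, 95% interval -0.12 to 0.18), within the control range or just above it. The Dox effect at day 5 differed from that at day 0 by -0.997 (SE 0.14, edgeR adjusted p = 0.00064) and from that at day 3 by -0.996 (SE 0.14, edgeR adjusted p = 0.0013), both on the log2 scale.

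Esrp1 at day 5 moved the other way, from 0.745, 0.570 and 0.514 CPM in control (22, 18 and 20 counts) to 1.40, 1.10 and 1.15 CPM with Dox (46, 36 and 40 counts). The groups did not overlap, and both were a small remnant of the day 3 level. The log2 fold change was 1.01 (SE 0.20, 95% interval 0.60 to 1.43, edgeR adjusted p = 0.0042). This call was not kept by limma-voom (log2 fold change 1.00, adjusted p = 0.053) or on log2(TPM + 1) (0.26, limma adjusted p = 0.096). At day 0 Esrp1 was at 0.456, 0.195 and 0.437 CPM with Dox and overlapped control, with a log2 fold change of 1.22 (SE 0.39, edgeR adjusted p = 0.19). At day 3 it was at 94.0, 99.1 and 103 CPM (log2 fold change 0.02, 95% interval -0.14 to 0.18).

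Of the Esrp1 Dox effects, that at day 5 was larger than that at day 3 by 0.99 on the log2 scale (SE 0.21, edgeR adjusted p = 0.032), and against day 0 it differed by -0.20 (95% interval -1.09 to 0.68). Between day 3 and day 0 the Dox effect passed for 0 of the 10 genes by edgeR (2 at an unadjusted p under 0.05, reached by 8.05% of all genes). It passed for 1 between day 5 and day 0, Cdh1, and for 2 between day 5 and day 3, Cdh1 and Esrp1. Of all genes tested these differences passed for 0.0562% (0.0393% higher), 3.28% (1.76% higher and 1.52% lower) and 0.82% (0.354% higher and 0.466% lower). The Esrp1 difference between day 5 and day 3 was lost in 11 of the 18 fits that each left out 1 library, namely any of the 6 libraries of day 3 and 5 of the 6 of day 5 (all but control replicate 1), with edgeR adjusted p from 0.053 to 0.20.

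The other 3 epithelial genes did not pass at any day. At day 5 Epcam was at 3.22, 2.29 and 1.93 CPM with Dox (log2 fold change -0.05, 95% interval -0.44 to 0.34), overlapping control. Cldn6 was at 0.547, 0.396 and 1.53 CPM (log2 fold change -0.0011, 95% interval -0.84 to 0.84) and Cldn7 at 0.213, 0.152 and 0.375 CPM (log2 fold change -0.0073, 95% interval -1.496 to 1.48). The Cldn7 interval includes a change of the size seen for Cdh1, and the Cldn6 interval ends just short of it. At day 3 Epcam was at 161, 166 and 168 CPM with Dox, below all control libraries (log2 fold change -0.08, 95% interval -0.29 to 0.13), and the claudins lay higher with Dox by log2 fold changes of 0.20 and 0.23, and Cldn6 passed only when day 3 was fitted alone with the replicate number as a block (0.20, edgeR adjusted p = 0.024). At day 0 Cldn7 passed only without control replicate 3 (log2 fold change 1.63, edgeR adjusted p = 0.045).

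N-cadherin did not follow E-cadherin: Cdh2 at day 5 was at 425, 419 and 411 CPM with Dox against 432, 391 and 420 CPM in control (log2 fold change 0.01, 95% interval -0.25 to 0.28). Zeb1 was at 66.5, 60.7 and 67.5 CPM with Dox (log2 fold change 0.07, 95% interval -0.14 to 0.29). Both overlapped control at all 3 days.

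Zeb2 at day 5 was at 84.3, 80.0 and 85.8 CPM with Dox, all above the control libraries, which ended at 75.5 CPM. Its log2 fold change of 0.28 (95% interval 0.05 to 0.51) did not pass (edgeR adjusted p = 0.19). It did pass when day 5 was fitted alone, without the replicate block (edgeR adjusted p = 0.029) and with it (0.0012), by limma-voom (0.0496), and with no filter on low counts (edgeR, 0.040).

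Vim and Snai1 at day 5 were spread out by 1 library. Vim was at 362, 488 and 494 CPM with Dox (log2 fold change 0.26, edgeR adjusted p = 0.25), and Snai1 at 2.19, 1.10 and 1.39 CPM (log2 fold change -0.40, edgeR adjusted p = 0.33). In both genes Dox replicate 1 lay within or next to the control range and the other 2 libraries lay apart from it. Without that library both passed (Vim 0.39, edgeR adjusted p = 0.034; Snai1 -0.72, edgeR adjusted p = 0.030). Vim also passed with no filter on low counts (0.25, edgeR adjusted p = 0.014).

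On the earlier days the Snai1 groups did not overlap. At day 0 it was at 1.12, 1.60 and 1.17 CPM with Dox, below all control libraries (log2 fold change -0.66, SE 0.21, edgeR adjusted p = 0.16). At day 3 it was at 7.64, 7.13 and 7.36 CPM, above all control libraries (log2 fold change 0.29, SE 0.17). Neither difference passed, nor did the difference between them (0.95, SE 0.27, edgeR adjusted p = 0.26).

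The cadherin ratio with Dox was 6.04, 6.83 and 6.89 (log2, TPM) at day 0 and 3.76, 4.16 and 3.83 at day 3, overlapping control on both days. At day 5 it was -7.00, -7.56 and -7.31, below all control libraries, so N-cadherin mRNA exceeded E-cadherin mRNA 128- to 189-fold. The difference of the means was -1.06, the exact two-sided permutation p was 0.1, the smallest that 3 libraries against 3 can give, and 0.3 after adjustment over the 3 days.

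**Figure D3:**
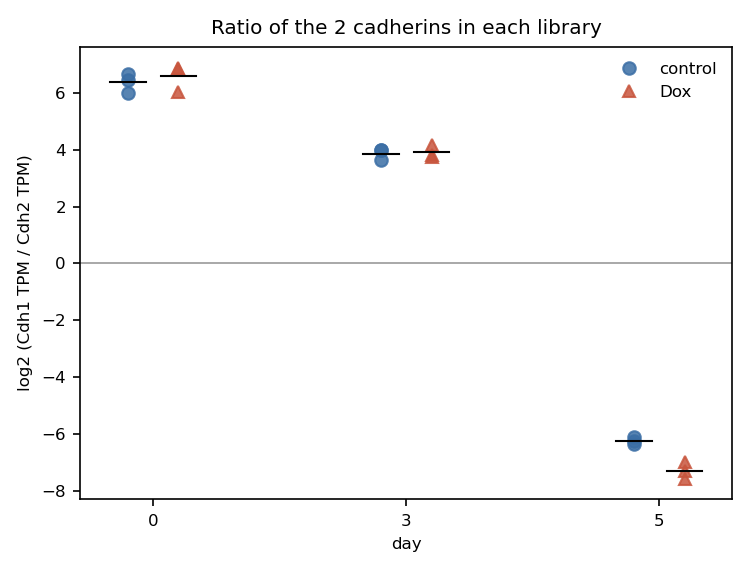
Log2 ratio of Cdh1 to Cdh2 TPM in each library against day, with circles for control, triangles for Dox and a bar at each group mean. The ratio is above 0 at day 0 and day 3 and below 0 at day 5, where the Dox libraries (-7.56 to -7.00) lie under the control libraries (-6.34 to -6.10).

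Other genes of the same machinery were taken from 6 lists. For each list the counts in control are to be read against all genes tested. From day 0 to day 3, 37.2% of all genes rose and 36.3% fell. From day 3 to day 5, 31.7% rose and 33.1% fell. In the list of 24 junction and polarity genes, 12 rose and 9 fell in control from day 0 to day 3, and 3 rose and 17 fell from day 3 to day 5. Cldn4, another claudin, and Jup, plakoglobin of desmosomes and adherens junctions, fell at the first step already (77.1 ± 12.01 to 4.18 ± 0.16 CPM and 350 ± 35.8 to 40.8 ± 1.61 CPM, SD, n = 3), against the direction of the 5 epithelial members. Cgn, the tight junction protein cingulin, rose from 5.13 ± 0.61 to 38.4 ± 1.37 CPM as they did. Cldn3, the desmosomal cadherin Dsg2 and Marveld2, the tricellular junction protein tricellulin, fell at the second step, from 22.7 ± 1.27 to 0.359 ± 0.139 CPM, from 29.96 ± 0.97 to 0.660 ± 0.146 CPM and from 8.31 ± 0.81 to 0.741 ± 0.148 CPM. The 3 that rose at the second step, named after their values were seen, were F11r, Ctnna1 and Ctnnb1.

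With Dox, 4 of the 24 junction genes were lower at day 5 and 0 were higher, where 2.34% of all genes were lower and 2.39% higher. An unadjusted p under 0.05 was reached by 8 of the 24 (16.4% of all genes). The list had a median log2 fold change of -0.032 against 0.0035 for all genes tested. F11r, the tight junction adhesion molecule JAM-A, went from 99.9 ± 7.24 CPM in control to 42.4 ± 4.79 CPM with Dox (log2 fold change -1.24, SE 0.12, edgeR adjusted p = 5.9e-06). In control it had risen from day 3 to day 5, unlike Cdh1. Dsp, the desmosome plaque protein desmoplakin, went from 43.4 ± 7.30 to 22.2 ± 6.51 CPM (log2 fold change -0.97, SE 0.17, edgeR adjusted p = 0.0020).

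Llgl2, a basolateral polarity protein, went from 22.8 ± 0.70 to 15.3 ± 2.49 CPM at day 5 with Dox (log2 fold change -0.58, SE 0.09, edgeR adjusted p = 0.00049). Crb3, an apical polarity protein below the level at which list genes were to be named and added after its values were seen, went from 2.83 ± 0.23 to 1.72 ± 0.28 CPM (log2 fold change -0.72, edgeR adjusted p = 0.016). The Crb3 call was lost without control replicate 1, Dox replicate 2 or Dox replicate 3 of day 5 (edgeR adjusted p from 0.065 to 0.096), and that of Llgl2 on log2(TPM + 1) (limma adjusted p = 0.059). At day 0 and day 3, 0 of the 24 passed by edgeR (8 and 0 at an unadjusted p under 0.05, against 12.3% and 2.43% of all genes).

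**Figure D4:**
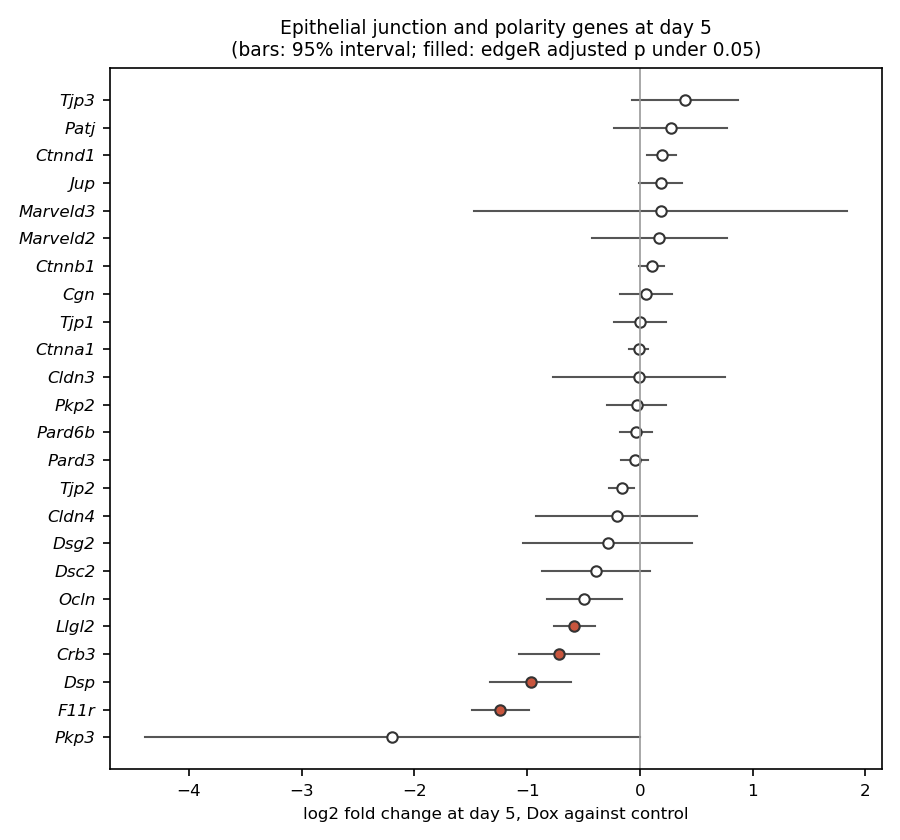
Log2 fold change at day 5, Dox against control, for the 24 listed junction and polarity genes in order of size, with 95% intervals. The filled points F11r (-1.24), Dsp (-0.97), Crb3 (-0.72) and Llgl2 (-0.58) passed an edgeR adjusted p under 0.05, and Pkp3 (-2.19), which has the widest interval, did not.

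Of 20 listed epithelial surface, keratin and regulator genes, 19 were tested. From day 0 to day 3 in control 9 rose and 5 fell, and from day 3 to day 5 none rose and 17 fell. Lsr, a tricellular junction receptor, rose from 5.41 ± 0.64 to 122 ± 0.34 CPM at the first step, while the transcription factors Elf3 and Grhl3 fell from 134 ± 6.36 to 5.11 ± 0.52 CPM and from 31.7 ± 3.30 to 2.02 ± 0.15 CPM. At the second step Grhl2, a transcription factor of epithelial genes, fell from 23.8 ± 1.03 to 0.588 ± 0.107 CPM, St14, the membrane protease matriptase, from 77.8 ± 3.62 to 1.10 ± 0.21 CPM and Ap1m2, an epithelial sorting adaptor, from 11.96 ± 1.497 to 0.133 ± 0.034 CPM. With Dox, 0 of 19 passed by edgeR at day 0, day 3 or day 5 (4, 0 and 5 at an unadjusted p under 0.05).

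Among 13 other transcription factors of the transition, 8 rose and 5 fell in control from day 0 to day 3, and 10 rose and 3 fell from day 3 to day 5. At the first step Foxd3, a forkhead factor of stem cells and neural crest, fell from 32.5 ± 5.42 to 0.663 ± 0.030 CPM and Gsc, the homeobox factor goosecoid, from 14.8 ± 3.54 to 3.65 ± 0.67 CPM, while Tcf4, a basic helix-loop-helix factor, rose from 65.7 ± 5.42 to 79.7 ± 4.53 CPM. Foxc1 and Foxc2, forkhead factors of the paraxial mesoderm, and Prrx2, a mesenchymal homeobox factor, were among those that rose at the second step, to 19.4 ± 1.61, 20.9 ± 1.04 and 7.43 ± 0.88 CPM. With Dox, 2 of 13 were lower at day 5 and none higher (4 at an unadjusted p under 0.05), where 2.34% of all genes were lower and 2.39% higher. Foxc1 went to 11.7 ± 1.17 CPM (log2 fold change -0.73, edgeR adjusted p = 0.027) and Foxc2 to 13.2 ± 2.59 CPM (log2 fold change -0.66, edgeR adjusted p = 0.035). Both calls were lost when any library of day 5 other than Dox replicate 1 was left out, with edgeR adjusted p from 0.054 to 0.16 and from 0.095 to 0.22. At day 0 and day 3, 0 of 13 passed by edgeR (0 and 2 at an unadjusted p under 0.05).

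The list of mesenchymal matrix, adhesion and cytoskeleton genes had 19 of 20 tested. In control 10 rose and 8 fell from day 0 to day 3, and 11 rose and 7 fell from day 3 to day 5. Sparc, a matrix glycoprotein, fell from 278 ± 26.1 to 22.0 ± 0.60 CPM at the first step, and Itgb3, an integrin subunit, from 23.8 ± 1.81 to 0.039 ± 0.035 CPM. Tagln, an actin-binding protein, rose from 0.136 ± 0.088 to 19.2 ± 1.501 CPM at that step and fell to 1.55 ± 0.38 CPM at the second. Fbn2, a fibrillin of microfibrils, rose from 5.74 ± 0.57 to 90.9 ± 8.88 CPM at the second step, and Cdh6, a type II cadherin, from 0.843 ± 0.219 to 15.2 ± 1.74 CPM.

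With Dox at day 5, 3 of the 19 were higher and 2 lower (9 at an unadjusted p under 0.05), where 2.39% of all genes were higher and 2.34% lower. Sparc was higher, at 65.3 ± 6.72 CPM against 38.5 ± 3.18 CPM (log2 fold change 0.76, SE 0.09, edgeR adjusted p = 4.5e-05). Fbn2 was lower, at 55.3 ± 9.23 CPM (log2 fold change -0.72, edgeR adjusted p = 0.0037), as was Vcan, the matrix proteoglycan versican, at 132 ± 24.6 against 211 ± 27.1 CPM (log2 fold change -0.68, edgeR adjusted p = 0.023). The Vcan call was lost without control replicate 1 or 3 or Dox replicate 2 or 3 of day 5 (edgeR adjusted p from 0.086 to 0.14).

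The other 2 higher genes, which at day 5 lay below the level for naming and were added after their values were seen, were Tagln (1.55 ± 0.38 to 3.41 ± 0.48 CPM, edgeR adjusted p = 0.0032), and Itgb3 (0.211 ± 0.089 to 0.498 ± 0.046 CPM, edgeR adjusted p = 0.0487). The Itgb3 call was lost with the replicate block (edgeR adjusted p = 0.0506), by limma-voom (adjusted p = 0.18), on log2(TPM + 1) (limma adjusted p = 0.72), with day 5 fitted alone (edgeR adjusted p of 0.072, and 0.071 with the block) and in 13 of the 18 fits that left out 1 library (edgeR adjusted p from 0.052 to 0.17). At day 0, 1 of 19 passed, against 1.04% of all genes. This was Cdh4 (R-cadherin), at 7.49 ± 2.69 CPM with Dox against 15.4 ± 6.47 CPM (log2 fold change -1.03, edgeR adjusted p = 0.0475), a call lost in 16 of those 18 fits (edgeR adjusted p from 0.060 to 0.17). It was also lost by limma-voom (adjusted p = 0.087), on log2(TPM + 1) (limma adjusted p = 0.076), with library size alone (edgeR adjusted p = 0.058) and with day 0 fitted alone (edgeR adjusted p = 0.81). At day 3, 0 of 19 passed by edgeR (1 at an unadjusted p under 0.05).

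Of 15 listed signal inputs of the transition, 14 were tested. At day 3 in control the ligands Wnt8a, Wnt3 and Fgf8, which act in the primitive streak, stood at 231 ± 7.18, 42.4 ± 4.79 and 90.5 ± 12.1 CPM, against 0.086 ± 0.088, 0.201 ± 0.130 and 0.464 ± 0.211 CPM at day 0. At day 5 they had fallen to 1.12 ± 0.34, 3.69 ± 0.43 and 0.882 ± 0.143 CPM, which was still above day 0 (log2 fold changes of 3.73, 4.17 and 0.89, largest edgeR adjusted p = 0.0086, for Fgf8). Nodal fell from 72.7 ± 7.16 CPM at day 3 to 0.574 ± 0.059 CPM at day 5. In all, 6 of 14 rose and 4 fell to day 3, and 3 rose and 9 fell to day 5. With Dox, 0 of 14 passed by edgeR at day 0, day 3 or day 5 (2, 1 and 4 at an unadjusted p under 0.05).

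The last list held 12 transcripts whose splicing Esrp proteins are known to set. In control 5 of the 12 rose and 4 fell from day 0 to day 3, and 6 rose and 5 fell from day 3 to day 5. With Dox at day 5, 0 were higher and 1 was lower (5 at an unadjusted p under 0.05), where 2.39% of all genes were higher and 2.34% lower. The lower gene was Itga6, an integrin of epithelial basal membranes, at 44.4 ± 5.15 against 60.8 ± 2.22 CPM (log2 fold change -0.45, edgeR adjusted p = 0.0038). At day 0 and day 3, 0 of 12 passed by edgeR (0 and 0 at an unadjusted p under 0.05). In control the fibroblast growth factor receptors Fgfr3 and Fgfr2 rose from day 3 to day 5, from 1.39 ± 0.11 to 110 ± 6.69 CPM and from 8.97 ± 1.35 to 195 ± 3.94 CPM, and Scrib, a polarity scaffold, from 130 ± 5.07 to 254 ± 5.06 CPM. Fgfr1 rose from 128 ± 7.76 CPM at day 0 to 265 ± 4.32 CPM at day 3 and fell to 204 ± 3.61 CPM at day 5. Enah, an actin regulator, and Nf2, the membrane-cytoskeleton linker merlin, fell at the first step, from 441 ± 48.8 to 151 ± 5.06 CPM and from 236 ± 15.2 to 138 ± 7.35 CPM. The other genes that fell at the second step, named after their values were seen, were Cd44, Ctnnd1, Nf2 and Itga6.

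The deposited tables give for each gene a mean transcript length weighted by the estimated share of each isoform, in bases, which moves only if the estimated mix of isoforms moves. Over the 10 members and the 12 splice targets (22 genes and 110 comparisons), the group means differed by over 2 SDs of the more variable group in 7, described here without a test. Fgfr1 was at 3682 ± 22.3 bases at day 0, 3610 ± 42.8 bases at day 3 and 3827 ± 80.1 bases at day 5 in control libraries. Nf2 was at 3993 ± 95.2, 3885 ± 54.5 and 4178 ± 108 bases on the same days. Zeb2, whose day 0 length rests on few counts and was 3377 ± 1811 bases, was at 4447 ± 15.9 bases at day 3 and 5053 ± 175 bases at day 5. From day 0 to day 3 in control, Vim went from 1469 ± 7.4 to 1552 ± 37.1 bases and Cldn6 from 1500 ± 11.6 to 1461 ± 5.6 bases. The only such gaps with Dox were in Cldn6, at day 0 and at day 5. Its day 5 lengths rest on 13 to 53 counts per library.

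Several other splice targets barely moved in this measure: Ctnnd1 was at 5002 ± 65.5 bases at day 3 and 4936 ± 168 at day 5, and Fgfr2 at 2336 ± 146 and 2365 ± 138 bases. Isoforms of like length, such as those that differ by mutually exclusive exons, cannot be told apart by it.

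As a description over the 18 libraries, in which the days set most of the variation, the genes most like each of 4 members in log2 CPM were listed by Pearson's r. For Cdh1 they were Olfr1388, Rarg, Card10 and Ephx2 (r of 0.995 to 0.996). Cdh2 was most like Cand2, Ccar2, Rcbtb1 and Zfp68 (r of 0.996 to 0.997), and Epcam most like Ptpn3, Cabp7, Grhl2 and Lama5 (r of 0.994 to 0.995). The nearest to Snai1 were less close: Tpcn1, Stx16, Sema3e and Cdx2, with r of 0.957 to 0.977.

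Markers of cell types that could carry Cdh1 were read beside the day 5 result. Of 6 markers of gut endoderm, an epithelium that keeps E-cadherin, 5 were tested, and 2 were lower with Dox and 0 higher. Among all genes, 2.34% were lower and 2.39% higher. The other 3 tested, Sox17, Cldn4 and Trh, did not pass, and the median log2 fold change of the list was -0.23. The 2 lower markers were Foxa1 at 1.47 ± 0.19 against 3.89 ± 0.33 CPM (log2 fold change -1.41, edgeR adjusted p = 0.0041) and Foxa2 at 0.709 ± 0.095 against 1.77 ± 0.52 CPM (log2 fold change -1.34, edgeR adjusted p = 0.0028). The Foxa2 call was lost on log2(TPM + 1) (-0.41, limma adjusted p = 0.12). Which cells carried Foxa1 and Foxa2 was not tested, so their fall cannot be read as a loss of gut endoderm. The 6 summed to 7.72 to 9.44 CPM in control and 4.36 to 5.75 CPM with Dox, with none at 0. Surface ectoderm markers summed to 0.771 to 1.49 CPM in control and 1.27 to 2.10 CPM with Dox at day 5, with Krt14 at 0 in control and Krt5 and Krt14 at 0 with Dox. Stem cell markers summed to 274.7 to 282.2 and 263.1 to 277.7 CPM. Their list of 7 includes Sox2, which also stands in the neural tube list. From day 3 to day 5 in control Sox2 rose and the other 6 fell, so this sum cannot be read as stem cells alone. The part of any of these cell types in the Cdh1, F11r, Dsp and Esrp1 differences was not tested.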

How the data were processed

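Gene tables of 18 poly(A) RNA libraries were used. Per the submitters' processing notes the build was GRCm38 and the tools were RSEM 1.3.3, STAR 2.7.10a, DESeq2 1.38.2 and Trimmomatic. Their roles, the annotation release and the strand setting are not given in the sources used here. The deposited expected counts are RSEM's estimated counts per gene, with 6.54 to 7.49% not whole, and were rounded. The deposited TPM served for levels between genes, and the deposited weighted length for isoform mixes. The deposited FPKM was not used. Of 55401 gene IDs, 55141 matched a symbol of GENCODE M21 without version.

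Counts were fitted in edgeR 4.0.16 (R 4.3.3) by quasi-likelihood F tests, with TMM factors of 0.894 to 1.063, filterByExpr (minimum count 10, minimum total 15), a mean per group and 12 residual degrees of freedom. P-values were adjusted by Benjamini-Hochberg over 17795 genes, with 0.05 as the threshold. The script was tested on simulated data. The SE is the absolute log2 fold change over the root of F. Each library's batch label equals its replicate number, so the number may pair samples, but what the label marks is not stated. The fit reported here had no replicate block. After group means were removed, same-numbered control and Dox libraries of a day correlated at 0.160 to 0.236 at day 0, 0.0069 to 0.016 at day 3 and 0.011 to 0.028 at day 5. Those of unlike number correlated at -0.175 to 0.025, -0.026 to 0.018 and -0.032 to 0.016. Only at day 0 did the ranges not overlap. The 10 genes and all lists were chosen with earlier results of these data known. List genes were named by rule: per list, Dox comparison and control comparison (day 0 to 3, day 3 to 5, day 0 to 5), up to 3 that passed, with the largest change and at least 5 CPM in the higher group. Day 0 to 5 added Esrp2, Sox9, Cdh11, Fgf4 and Tgfb2. Their log2 fold changes were -5.48, 8.27, 7.73, -10.6 and 2.75 (largest edgeR adjusted p = 3.5e-09, Tgfb2). Genes like a member were the 4 with the highest Pearson r and a mean of at least 5 CPM. Alternatives were DESeq2 1.42.0, limma 3.58.1 (voom, and log2(TPM + 1)), other scalings and filters, the replicate block, fits by day, removal of CT010467.1 and leaving out each library.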

Additional observations from a re-analysis of the deposited data

Results flagged for a closer look

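The Dox effect differed between days, by the edgeR test of that difference on the log2 scale, for 2 of the 10 genes. Cdh1 at day 5 differed from day 0 by -0.997 (adjusted p = 0.00064) and from day 3 by -0.996 (adjusted p = 0.0013). Esrp1 at day 5 differed from day 3 by 0.99 (edgeR adjusted p = 0.032). Of all genes tested, 3.28% passed for day 5 against day 0, 0.82% for day 5 against day 3 and 0.0562% for day 3 against day 0.

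Among the listed junction genes, the Dox effect on F11r at day 5 differed from that at day 0 by -1.33 (edgeR adjusted p = 0.00036) and from that at day 3 by -1.31 (edgeR adjusted p = 0.00061). For Dsp the differences were -1.15 (edgeR adjusted p = 0.010) and -1.05 (edgeR adjusted p = 0.043). Against day 3 alone, Llgl2 differed by -0.58 (edgeR adjusted p = 0.025) and Crb3 by -0.98 (edgeR adjusted p = 0.041).

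Of the 24 junction genes, 3 differed between day 5 and day 0 and 4 between day 5 and day 3, all lower. The 3 include Ocln, the tight junction protein occludin (-0.85, edgeR adjusted p = 0.024). In the epithelial surface list 1 of 19 differed, Lsr (-0.62 against day 0, edgeR adjusted p = 0.044). Among the 19 matrix and adhesion genes Ncam1, a neural cell adhesion molecule, differed by -0.60 against day 0 (edgeR adjusted p = 0.026). Ocln, Lsr and Ncam1, named after their values were seen, did not pass with Dox on any day. The calls of Ocln, Lsr and Ncam1 were lost on log2(TPM + 1) (limma adjusted p of 0.63, 0.14 and 0.12) and in 5, 15 and 7 of the 18 fits that left out 1 library (edgeR adjusted p from 0.052 to 0.12). Those of Ocln and Lsr were also lost by limma-voom (adjusted p of 0.081 and 0.076), and that of Lsr with library size alone (edgeR adjusted p = 0.078). Between day 5 and day 0, 0 of 13 listed transcription factors and 0 of 14 signal inputs differed by edgeR (1 and 1 at an unadjusted p under 0.05, reached by 15.2% of all genes).

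Sparc differed by 0.68 against day 0 (edgeR adjusted p = 0.0041) and by 0.65 against day 3 (edgeR adjusted p = 0.022), and Itga6 by -0.52 against day 0 (edgeR adjusted p = 0.024). The markers Foxa1 (-1.86, edgeR adjusted p = 0.047) and Pax6 (-0.94, edgeR adjusted p = 0.0063) also differed between day 5 and day 0. The rise of Rnaseh1 with Dox itself was smaller at day 3 and at day 5 than at day 0, by -0.89 in both (edgeR adjusted p of 0.00087 and 0.00019).

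Fits that each left out 1 of the 18 libraries lost the day 5 to day 3 differences of Sparc in 7, Crb3 in 11, Llgl2 in 10 and Dsp in 10, with edgeR adjusted p from 0.053 to 0.17. They lost the day 5 to day 0 differences of Itga6 in 5 and Foxa1 in 14 (edgeR adjusted p from 0.0503 to 0.12). The Sparc difference between day 5 and day 3 was also lost by limma-voom (adjusted p = 0.063). That of Foxa1 between day 5 and day 0 was lost with library size alone (edgeR adjusted p = 0.054).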

How the results depend on the processing

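Of 90 values (10 genes in 9 comparisons), 33 passed the test, and 30 of these passed in every alternative run. The exceptions were Esrp1 with Dox at day 5, the Esrp1 difference between day 5 and day 3, and Cldn7 at day 5 against day 0 (limma-voom adjusted p = 0.079, 0.0997 on log2(TPM + 1)). Of the 57 that did not pass, 9 passed somewhere. None changed sign after passing. The replicate block in the fit of all libraries changed no call among the 10 genes.

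The number of the 10 genes called with Dox at day 5 was 2, against 4 with no filter, 1 on log2(TPM + 1) and 2 to 4 leaving out 1 library. For the Dox effect at day 5 minus day 3 it was 2, against 3 with no filter, 1 by limma-voom, 1 on log2(TPM + 1) and 1 to 2 leaving out 1 library. It was 1 for day 5 minus day 0, against 2 with no filter. It was 0 to 1 at day 0 leaving out 1 library, and 1 at day 3 fitted alone with the replicate block. With a pseudocount of 1 TPM the cadherin ratio at day 5 differed by -0.64.

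Over all genes, calls moved by over 1.5 times in some settings. With Dox at day 0 there were 185, against 508 by DESeq2, 549 with no filter, 313 with the replicate block, 3 with the day alone and 76 to 412 leaving out 1 library. At day 3 there were 3, against 5 by DESeq2, 25 with no filter, 6 on log2(TPM + 1), and 12 and 98 for the day alone without and with the block. At day 5 there were 843, against 1280 by DESeq2, 1628 and 2658 for the day alone without and with the block, and 410 to 1150 leaving out 1 library. For day 3 minus day 0 there were 10, against 117 by DESeq2, 25 by voom, 203 with no filter, 35 with the block and 3 to 52 leaving out 1. For day 5 minus day 0 there were 584, against 1008 by DESeq2, 889 with no filter and 308 to 794 leaving out 1. For day 5 minus day 3 there were 146, against 313 by DESeq2, 385 with no filter, 223 on log2(TPM + 1) and 45 to 219 leaving out 1. The cause of these moves was not tested. Library size alone in place of TMM shifted the median of all genes on the log2 scale, by 0.15 at day 3 and 0.17 at day 5, both against day 0 in control libraries. Day 5 levels of Cldn7 rest on 5 to 13 counts a library, which limits them.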

Other observations

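Some markers of other cell types in the day 5 gastruloids also differed with Dox, in both directions, where 2.39% of all genes were higher and 2.34% lower. Among those tested, 5 of 7 neural tube, 3 of 6 somite and 2 of 4 neural crest markers did not pass. Nor did 4 of 5 endothelium and 6 of 7 stem cell markers. In the primitive streak, surface ectoderm, trophoblast and feeder lists 0 passed. In the neural tube list Nkx6-1, a ventral progenitor factor, was at 4.45 ± 0.57 CPM with Dox against 9.88 ± 0.94 CPM (SD, n = 3, log2 fold change -1.15, edgeR adjusted p = 0.0041), and Pax6 at 195 ± 5.89 against 261 ± 8.48 CPM (log2 fold change -0.42, edgeR adjusted p = 0.020). In the somite list Pax3 was higher, at 29.5 ± 2.71 against 17.4 ± 1.59 CPM (log2 fold change 0.76, edgeR adjusted p = 0.0016). Meox1, a factor of the somites, was lower, at 50.5 ± 10.3 against 71.4 ± 6.65 CPM (log2 fold change -0.50, edgeR adjusted p = 0.029), and Foxc2, given above, stands in the same list.

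Ets1 in the neural crest list was at 13.7 ± 0.34 CPM with Dox against 22.3 ± 2.97 CPM (log2 fold change -0.71, edgeR adjusted p = 0.012). The remaining calls were at low levels and higher with Dox: Nanog at 2.08 ± 0.49 against 1.22 ± 0.34 CPM, Tfap2b at 1.09 ± 0.02 against 0.294 ± 0.062 CPM and Tek at 0.963 ± 0.359 against 0.270 ± 0.041 CPM (edgeR adjusted p of 0.017, 0.030 and 0.018). The calls of Nkx6-1 and Pax3 were kept in every alternative run. Those of Pax6, Meox1, Ets1, Nanog, Tfap2b and Tek were each lost without 1 or another library of day 5 (largest edgeR adjusted p of 0.105, 0.22, 0.072, 0.14, 0.13 and 0.095). Those of Pax6, Ets1 and Tek were also lost on log2(TPM + 1) (limma adjusted p of 0.31, 0.19 and 0.24), those of Nanog and Tek by limma-voom (adjusted p of 0.15 and 0.13), and that of Nanog with day 5 fitted alone (edgeR adjusted p = 0.087). These markers were named after their values were seen.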
